A study of Homo sapiens with 4 samples.

Results

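The insulin-like growth factor (IGF) genes examined here are a growth factor, its signalling receptors and adaptors, and the secreted proteins that bind it. Members were taken by name from the gene column of all 4 count tables. Of 10 listed genes, 9 were analysed, among 19192 genes in all. They are IGF2, IGF1R, INSR, IRS1, IRS2, IGFBP2, IGFBP3, IGFBP4 and IGFBP6, and 1 further listed gene is not analysed here. The rule itself uses no measured value, but the members were listed with earlier results of these data known.

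The series holds ribosome footprints, which are the mRNA pieces covered by translating ribosomes, and randomly fragmented RNA from 2 lines made from SW480, a long-established line of human colon cancer cells. One derivative carries the label LIN28B OE+IMP1-/- knockout and is called knockout-labelled here. The other carries the label LIN28B OE and is called OE-labelled here, so LIN28B overexpression is common to both by label. LIN28B is an RNA-binding protein that blocks maturation of let-7 microRNAs, and IMP1 is the RNA-binding protein encoded by IGF2BP1. Each derivative gave 1 RNA library and 1 footprint library from 3 pooled plates, and neither the number of clones behind a line nor the promoter of the LIN28B transgene is given in the sources used here.

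Total counts were 6813372 in the knockout-labelled and 5429224 in the OE-labelled RNA library, and 3260262 in the knockout-labelled and 2732760 in the OE-labelled footprint library. The targeted gene goes against the knockout label: IGF2BP1 had 1974 RNA counts and 821 footprint counts in the knockout-labelled libraries, against 840 and 332 in the OE-labelled libraries. LIN28B also differed between the lines, with 303 RNA counts in the knockout-labelled library and 1205 in the OE-labelled library. Every ratio given here is therefore between libraries carrying these labels and is no measure of a loss of IMP1. Of 9 intestinal epithelial markers, 7 reached a mean of 50 RNA counts, while KRT20 and CDH17 were at 0 in all libraries. Their summed level was 4955 CPM (counts per 1000000 counts of the scaled library) in knockout-labelled and 10441 CPM in OE-labelled RNA, and 14957 CPM in knockout-labelled and 29750 CPM in OE-labelled footprints, mostly from KRT8 and KRT18. CDH1 went the other way, with 614 RNA counts in the knockout-labelled and 243 in the OE-labelled library. Of 6 fibroblast markers, which would mark cells known to secrete IGF-binding proteins, 3 were at 0 in every library. Their summed RNA count was 61 in the knockout-labelled and 5 in the OE-labelled library, and 55 of the 61 came from COL1A1. Endothelial markers summed to 53 RNA counts in the knockout-labelled and 24 in the OE-labelled library, and leukocyte markers to 0 and 2. Of the hepatocyte markers ALB and APOA1 were at 0 in all libraries, and SERPINA1, which intestinal cells also make, had 92 in the knockout-labelled and 232 in the OE-labelled library. The part of any of these in the results was not tested.

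IGF2 is a secreted growth factor that acts on cells through IGF1R and the insulin receptor INSR, which are receptor tyrosine kinases. Activated receptors phosphorylate the docking proteins IRS1 and IRS2, which recruit phosphoinositide 3-kinase and so switch on AKT. IGF-binding proteins are secreted carriers that hold IGFs in the fluid around cells, limit or prolong their access to IGF1R, and are cut by proteases that set the IGF free. The name IGF2BP1 comes from the binding of its protein to the leader of IGF2 mRNAs, and IGF1R and IRS2 are among the genes known as let-7 targets.

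Because the lines differ in LIN28B, the let-7 sequence and its matches in the members are shown here. The mature sequence of let-7a (RefSeq, GRCh38.p14, chr9:94175962-94175983, plus strand) is printed with its seed, bases 2 to 8, in capitals.
hsa-let-7a-5p: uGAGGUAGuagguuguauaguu
The complement of the seed, CTACCTC, was searched on the transcript strand in the 3′ UTR of each member's listed transcript (GENCODE release 29, GRCh38). It was found in 2 of the 9 members, at 2 places in IGF1R and 1 place in IRS2. The lines below give 30 bases around each match, with the match in capitals. The IGF1R matches lie at chr15:98960039-98960068 and chr15:98964081-98964110 on the plus strand, and the IRS2 match at chr13:109755844-109755873 on the minus strand.
IGF1R match at base 2619 of the 3′ UTR: tttttttcccccaaacatttatCTACCTCa
IGF1R match at base 6661 of the 3′ UTR: tgagaggtttgccagagtttgtCTACCTCt
IRS2 match at base 453 of the 3′ UTR: tacactcaaaacgaccacagtcCTACCTCa
The heptamer occurred in 9.32% of the 3′ UTRs of 9844 genes measured in RNA, and in 25.5% of those of at least 3000 bases. The 3′ UTR has 7088 bases in IGF1R and 3606 bases in IRS2. A match of letters is a description and not a measured site.

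The member that differed most was IGFBP3, which encodes the main IGF carrier of serum and is a known p53-inducible gene. Its listed transcript (ENST00000275521) lies on chromosome 7 from 45912598 to 45921274 (GRCh38). Because its mRNA was nearly missing from one line, the 250 bases before its RefSeq start (GRCh38.p14, chr7:45921273-45921522, minus strand) are shown, with each CG dinucleotide in capitals.
IGFBP3 promoter: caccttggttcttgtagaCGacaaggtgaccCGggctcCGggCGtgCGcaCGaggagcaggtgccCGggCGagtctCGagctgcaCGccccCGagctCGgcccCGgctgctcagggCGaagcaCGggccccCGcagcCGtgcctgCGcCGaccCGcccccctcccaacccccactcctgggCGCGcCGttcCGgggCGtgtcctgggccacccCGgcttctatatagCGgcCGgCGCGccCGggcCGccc
This window holds 32 CG dinucleotides, against a median of 18 over 13983 promoters of the same length, of which 87.7% hold fewer. Of the other members, 7 have a RefSeq entry, and they hold between 7 CG dinucleotides in IGFBP2 and 48 in IGF1R. These windows precede RefSeq starts, which for some members differ from the start of the listed transcript. The IGFBP2 window ends at 216632827, and its listed transcript begins at 216633395. CG reads the same on both strands. DNA methylation was not measured in these libraries.

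Across the 9 members, knockout-labelled RNA and footprints held less of the 4 binding protein genes than OE-labelled ones. The mRNA of the ligand, receptors and adaptors stood nearer to 0, and in footprints IGF1R and INSR lay about as far from 0 as IGFBP2 and IGFBP4. Ratios are knockout-labelled over OE-labelled, after scaling each assay by TMM (trimmed mean of M-values), and 95% intervals cover counting error only. Levels are normalised CPM, the counts per 1000000 counts of the TMM-scaled library. With 1 library per line and assay there is no replicate check and no test. In mRNA, no member was higher by 2-fold or more and 3 were lower by as much (IGFBP3, IGFBP6 and IGFBP2), where 2.99% of 9855 measured genes passed 2-fold upwards and 3.49% downwards. At 1.5-fold, 0 members were higher and 4 lower, where 10.5% of all genes were higher and 10.5% lower. The median log2 mRNA ratio of the members was -0.32, against 0.01 over all measured genes. In footprints 8 members reached the minimum mean count of 50, and of these none was higher by 2-fold or more and 2 were lower by as much (IGFBP3 and IGFBP6), where 4.66% of 7323 genes were higher and 4.44% lower. At 1.5-fold, 0 were higher and 3 lower, the third being IGF1R, where 15% of all genes were higher and 14% lower. Their median log2 footprint ratio was -0.53, against 0.02 over all measured genes. The measured members ran from -5.83 to 0.36 in mRNA and up to 0.53 in footprints, so these medians show no shift common to all members. With a minimum mean count of 200 the member medians were -0.48 in mRNA, where INSR, IRS1 and IGFBP3 drop out, and -0.98 in footprints. That footprint value rests on IGFBP2 (-0.50) and IGFBP6 (-1.46) alone, so it says nothing about the other members. With libraries scaled by total counts the mRNA median was -0.20.

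**Figure D1:**
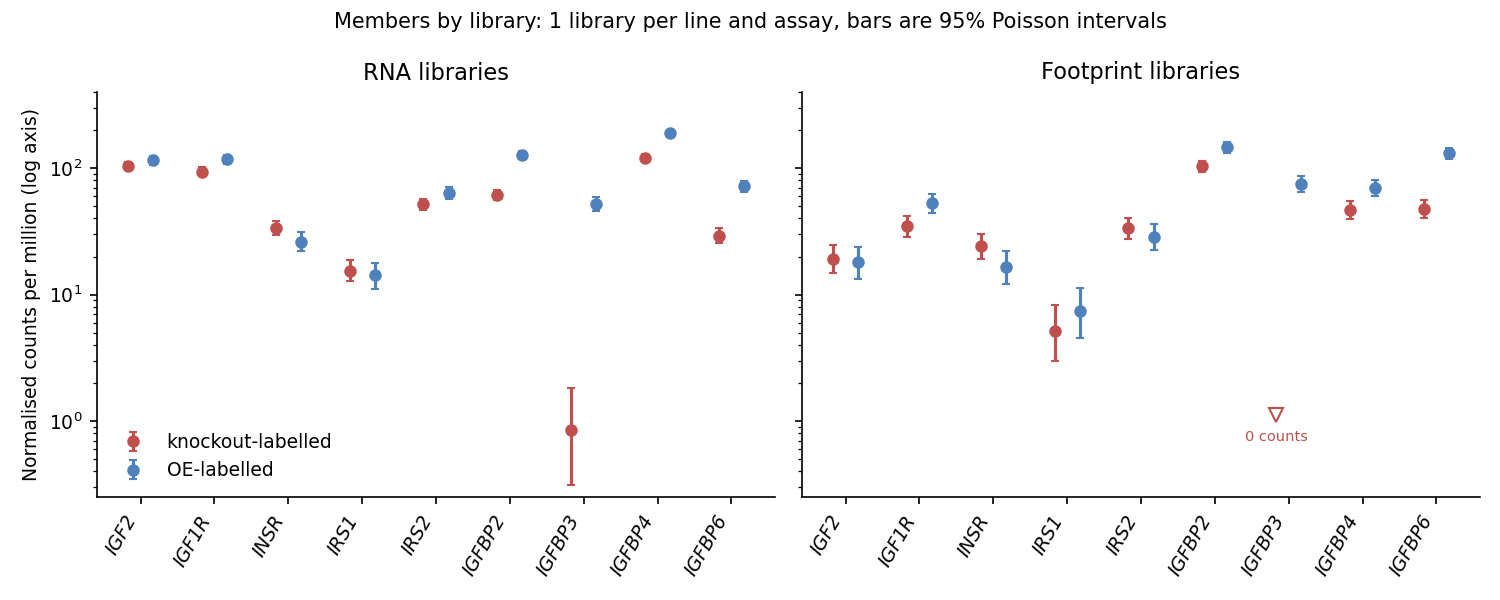
Normalised CPM (log axis) of each member in the RNA libraries (left panel) and footprint libraries (right panel), with the knockout-labelled library left of the OE-labelled library and bars for 95% Poisson intervals. IGFBP3 drops to 0.846 in knockout-labelled RNA and to 0 counts in knockout-labelled footprints, where the open triangle marks the upper Poisson limit of 1.12.

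IGFBP3 mRNA was nearly absent from the knockout-labelled library, and no footprint was counted there. It had 6 RNA counts in the knockout-labelled library and 272 in the OE-labelled library, or 0.846 and 52.2 CPM. The log2 ratio was -5.83 (95% interval -7.41 to -4.81). Footprints of IGFBP3 numbered 0 in the knockout-labelled library and 204 in the OE-labelled library. IGFBP3 passed the minimum mean count in both assays only through the OE-labelled library. Against a floor of 3 counts in the knockout-labelled library, which is 0.913 CPM, this is at least 82.4-fold lower. The 95% interval of the ratio is less strict than that floor and also allows a smaller difference, down to a log2 ratio of -6.05. The libraries cannot tell fewer IGFBP3-expressing cells from less RNA per cell. The 40 nearest measured genes, over 12.6 Mb of chromosome 7, had a median log2 mRNA ratio of 0.10, and 1 of the 40 was at least 2-fold lower. Neighbouring genes were looked at after the values were seen.

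IGFBP6 encodes a binding protein known to prefer IGF2 over IGF1. The gene (ENST00000301464) lies on chromosome 12 from 53097445 to 53102340. Its mRNA had 208 counts (29.3 CPM) in the knockout-labelled library and 375 counts (71.9 CPM) in the OE-labelled library, a log2 ratio of -1.29 (-1.55 to -1.05), and 1.65% of all measured genes were lower. Its footprints had 156 counts (47.5 CPM) in the knockout-labelled library and 356 counts (131 CPM) in the OE-labelled library, a log2 ratio of -1.46 (-1.75 to -1.19). With TMM scaling both intervals lie wholly past a 2-fold difference. With libraries scaled by total counts the mRNA ratio was -1.18, and its interval then reaches inside 2-fold. The 40 measured genes nearest to IGFBP6 had a median log2 mRNA ratio of -0.18. Of these, 1 was at least 2-fold higher and 7 were at least 2-fold lower, all 7 of them keratin genes, whose reads may be shared among near-identical copies. Among them were KRT8, with 10719 RNA counts in the knockout-labelled and 18310 in the OE-labelled library, and KRT18, with 19541 in the knockout-labelled and 30815 in the OE-labelled library. Whether the location plays a part was not tested.

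IGFBP2 encodes a binding protein that also carries an integrin-binding RGD sequence. The gene (ENST00000233809) lies on chromosome 2 from 216633395 to 216664436. Its mRNA had 438 counts (61.7 CPM) in the knockout-labelled library and 663 counts (127 CPM) in the OE-labelled library. The log2 ratio of -1.04 (-1.22 to -0.87) lies just past 2-fold and is -0.93 when libraries are scaled by total counts. Its footprints differed less, with 339 counts (103 CPM) in the knockout-labelled library and 397 counts (146 CPM) in the OE-labelled library, a log2 ratio of -0.50 (-0.72 to -0.29).

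IGFBP4 encodes a binding protein that mostly inhibits IGF action until the protease PAPPA cuts it. The gene (ENST00000269593) lies on chromosome 17 from 40443461 to 40457731. Its mRNA had 860 counts (121 CPM) in the knockout-labelled library and 982 counts (188 CPM) in the OE-labelled library, a log2 ratio of -0.64 (-0.77 to -0.50). The footprint ratio was close to that of the mRNA, at -0.56 (-0.88 to -0.25), from 154 counts (46.9 CPM) in the knockout-labelled and 188 counts (69.3 CPM) in the OE-labelled library.

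Summed over IGFBP2, IGFBP3, IGFBP4 and IGFBP6, the binding protein genes had 213 CPM in knockout-labelled RNA and 440 CPM in OE-labelled RNA, a log2 ratio of -1.04 (-1.14 to -0.95). In footprints the sum was 198 CPM in the knockout-labelled library and 422 CPM in the OE-labelled library, a log2 ratio of -1.09 (-1.24 to -0.96). Without IGFBP3 the sum was still lower in the knockout-labelled libraries, and its log2 ratios were -0.87 (-0.97 to -0.77) in RNA and -0.81 (-0.96 to -0.67) in footprints. IGFBP3 made up 0.397% of the summed RNA counts in the knockout-labelled library (exact binomial 95% interval 0.146% to 0.862%) and 11.9% in the OE-labelled library (10.6% to 13.3%). In footprints its share was 0 of 649 counts in the knockout-labelled library, which allows up to 0.462% by a floor of 3 counts and up to 0.567% by the exact binomial interval, and 17.8% in the OE-labelled library (15.6% to 20.2%).

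**Figure D2:**
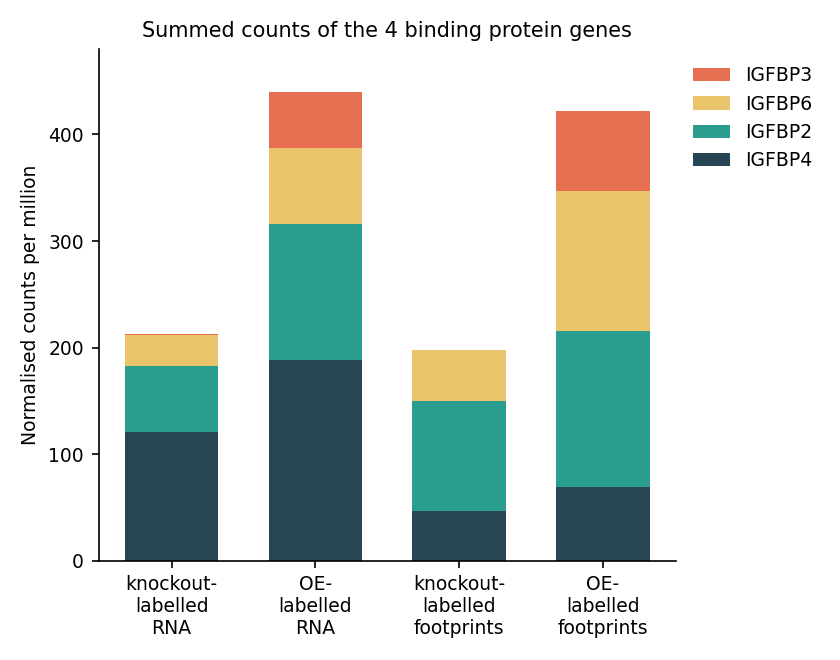
Summed normalised CPM of the 4 binding protein genes (y axis), with 1 bar per library and a segment per gene; the knockout-labelled bar stands left of the OE-labelled bar of each assay. The bars reach 213 and 198 in the knockout-labelled RNA and footprint libraries, against 440 and 422 in the OE-labelled libraries, where alone an IGFBP3 segment is visible in footprints.

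IGF2, the ligand gene (ENST00000416167, chromosome 11, 2129112 to 2139389), differed little between the lines. Its mRNA had 738 counts (104 CPM) in the knockout-labelled library and 600 counts (115 CPM) in the OE-labelled library, and its log2 ratio of -0.15 (-0.30 to 0.01) has an interval across 0. Footprints were few, with 63 counts (19.2 CPM) in the knockout-labelled library and 49 counts (18.1 CPM) in the OE-labelled library, a log2 ratio of 0.08 (-0.48 to 0.66). At this footprint depth a difference below about 1.5-fold in either direction was not detectable for IGF2. The overlapping read-through gene INS-IGF2 was listed at 0 in all 4 libraries, and the other ligand genes were scarce: IGF1 had 4 RNA counts in the knockout-labelled and 18 in the OE-labelled library, and INS had none in either.

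The receptors leaned in opposite directions. IGF1R (ENST00000268035, chromosome 15, 98648971 to 98964530) had 667 RNA counts (94.0 CPM) in the knockout-labelled library and 611 (117 CPM) in the OE-labelled library, a log2 ratio of -0.32 (-0.48 to -0.16). Its footprints had 114 counts (34.7 CPM) in the knockout-labelled library and 143 counts (52.7 CPM) in the OE-labelled library, a log2 ratio of -0.60 (-0.97 to -0.24), which is 1.52-fold lower. INSR (ENST00000302850, chromosome 19, 7116627 to 7294034) had 240 RNA counts (33.8 CPM) in the knockout-labelled library and 137 (26.3 CPM) in the OE-labelled library, a log2 ratio of 0.36 (0.06 to 0.68). It was the only member with an mRNA interval wholly above 0. Its footprints had 79 counts (24.0 CPM) in the knockout-labelled library and 45 counts (16.6 CPM) in the OE-labelled library, and the log2 ratio of 0.53 (-0.01 to 1.1) has an interval that reaches 0. The third receptor gene of the family, INSRR, had 5 RNA counts in the knockout-labelled library and 0 in the OE-labelled library.

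Of the docking proteins, IRS2 leaned lower in mRNA with TMM scaling and not in footprints. IRS2 (ENST00000375856, chromosome 13, 109752698 to 109786568) had 367 RNA counts (51.7 CPM) in the knockout-labelled library and 333 (63.9 CPM) in the OE-labelled library, a log2 ratio of -0.30 (-0.52 to -0.09). Its footprints had 110 counts (33.5 CPM) in the knockout-labelled library and 78 counts (28.8 CPM) in the OE-labelled library, a log2 ratio of 0.22 (-0.21 to 0.66). With libraries scaled by total counts the IRS2 mRNA ratio was -0.19, within counting error of 0. IRS1 (ENST00000305123, chromosome 2, 226731317 to 226799759) was the scarcest adaptor. It had 110 RNA counts (15.5 CPM) in the knockout-labelled library and 74 (14.2 CPM) in the OE-labelled library, a log2 ratio of 0.12 (-0.31 to 0.57). IRS1 footprints numbered 17 in the knockout-labelled and 20 in the OE-labelled library, so IRS1 did not reach the minimum count and its footprint ratio was not measured. Summed with TMM scaling, the 4 receptor and adaptor genes had 195 CPM in knockout-labelled RNA and 222 CPM in OE-labelled RNA. The log2 ratio was -0.18 (-0.30 to -0.07), and that of their summed footprints was -0.11 (-0.35 to 0.12). Scaling by total counts raises every mRNA ratio alike and would bring the RNA interval of this sum across 0.

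**Figure D3:**
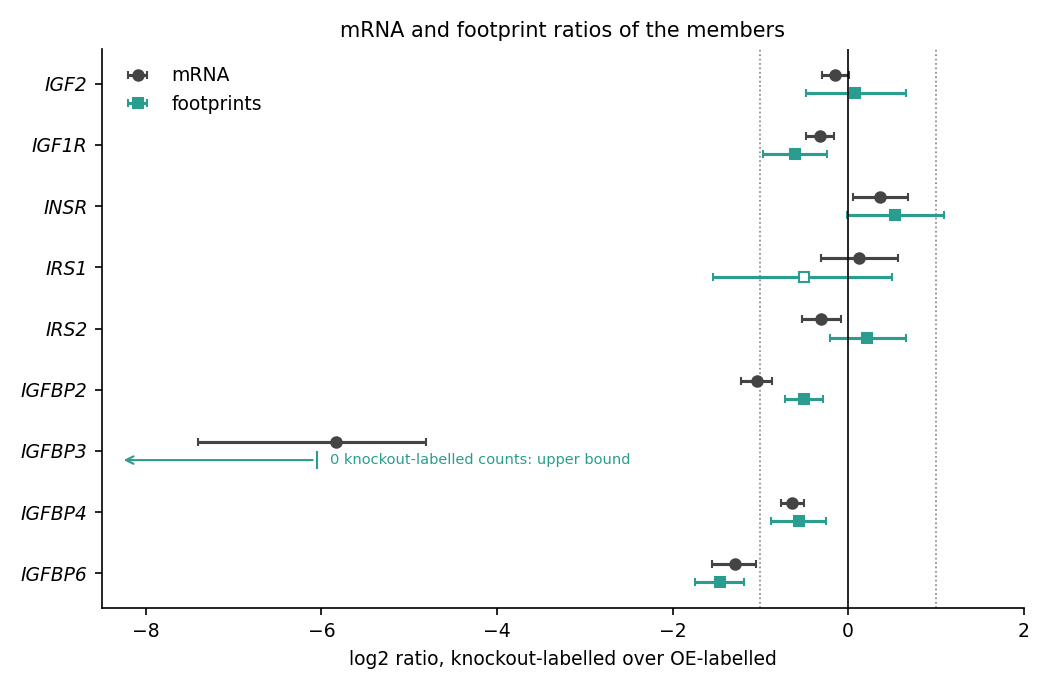
The log2 ratio, knockout-labelled over OE-labelled (x axis), of each member in mRNA (circles) and footprints (squares) with 95% counting intervals; dotted lines mark 2-fold, and an open symbol marks IRS1 footprints, which are under the minimum count. All 4 binding protein genes lie left of 0 in both assays, with IGFBP3 at -5.83 in mRNA and below -6.05 in footprints, and INSR lies right of 0.

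The members that hold a let-7 seed match, shown above, had log2 mRNA ratios of -0.32 (IGF1R) and -0.30 (IRS2), and footprint ratios in opposite directions, -0.60 (IGF1R) and 0.22 (IRS2). Over the 917 measured genes with a match the median was 0.05, against 0.01 for genes without, and in footprints these medians were 0.06 and 0.02. The binding protein genes, IGF2, INSR and IRS1 have no match in the listed 3′ UTR. For INSR the listed 3′ UTR has only 429 bases, and no longer form was searched, so a match elsewhere in INSR mRNA is not excluded.

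With TMM scaling, translational efficiency, which divides the footprint ratio by that of the mRNA, differed from 0 beyond counting error for 2 members. It was higher in the knockout-labelled line for IGFBP2, with a log2 ratio of 0.54 (0.27 to 0.81), and for IRS2, with 0.52 (0.05 to 0.99), which are 1.45-fold and 1.44-fold. With libraries scaled by total counts these ratios were 0.44 and 0.43, and that of IRS2 was then within counting error of 0. IGF2 (0.23), INSR (0.17), IGFBP4 (0.07), IGFBP6 (-0.17) and IGF1R (-0.28) had intervals across 0. No member was at least 2-fold higher, where 3.65% of 7260 genes were higher and 3.6% lower, and IGFBP3 alone was at least 2-fold lower. Its log2 ratio of -3.12 (-7.28 to 1.04) rests on 0 footprint and 6 RNA counts in the knockout-labelled line and has an interval across 0, so its efficiency there was not measurable at this depth.

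**Figure D4:**
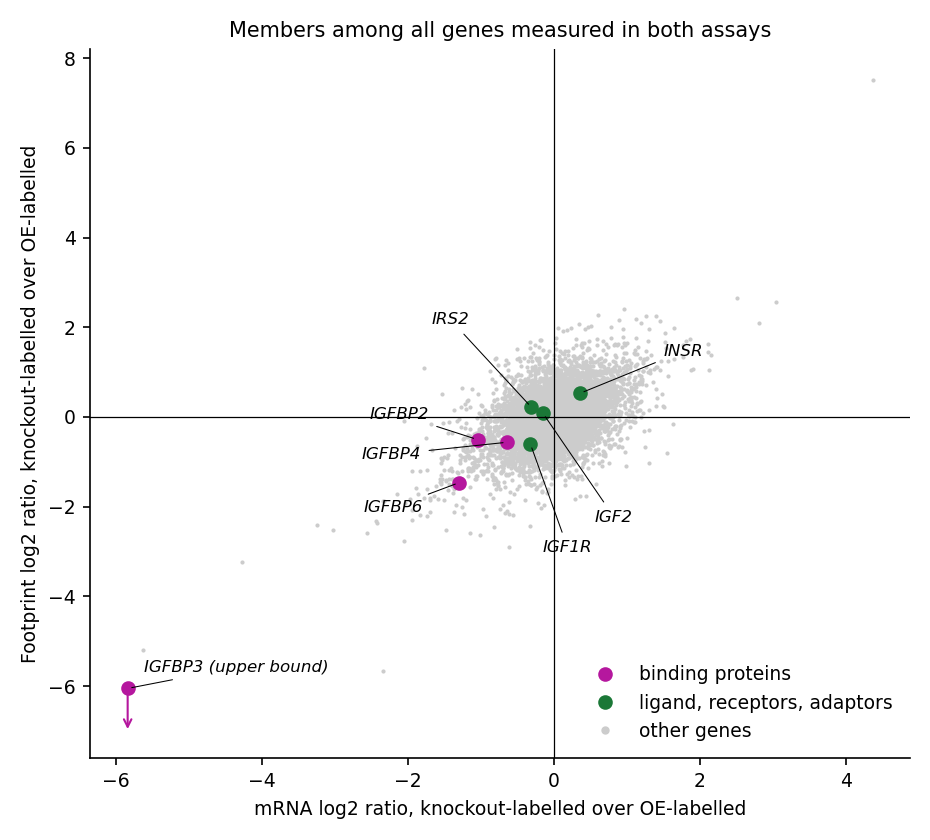
mRNA log2 ratio (x axis) against footprint log2 ratio (y axis), both knockout-labelled over OE-labelled, for all 7260 genes measured in both assays (grey) with 8 members named; IRS1 is not shown because its footprints are under the minimum count. IGFBP3, drawn at the upper bound of -6.05 of its footprint interval, sits at the lower left, IGFBP6 at -1.29 and -1.46, and the other members within the grey cloud.

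Footprints over RNA within a line separated the members by gene far more than by line. The values are log2 ratios of footprint CPM to RNA CPM. Their median over 7260 genes was 0.23 in the knockout-labelled line and 0.21 in the OE-labelled line. IGF2 had the lowest value that could be measured, at -2.43 (-2.83 to -2.07) in the knockout-labelled line and -2.66 (-3.12 to -2.25) in the OE-labelled line, and 1.53% and 0.854% of all genes were lower. IGF1R stood at -1.43 and -1.15 and IGFBP4 at -1.37 and -1.44 in the knockout-labelled and OE-labelled lines. INSR stood at -0.49 in the knockout-labelled and -0.65 in the OE-labelled line, and IRS2 at -0.62 and -1.14. At the other end were IGFBP6, at 0.70 in the knockout-labelled and 0.87 in the OE-labelled line, and IGFBP2, at 0.74 and 0.20. IGFBP3 stood at 0.53 (0.26 to 0.79) in the OE-labelled line, above 64.6% of all genes, and has no measurable value in the knockout-labelled line, where 0 footprints and 6 RNA counts were found.

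The coding part of the listed transcript differs among members. Coding bases make up 9.72% of the IGF2 transcript, 34.8% of that of IGF1R and 35.3% of that of IGFBP4, against 61.8% for IGFBP6, 68.0% for IGFBP2 and 87.9% for INSR. The members did not follow this share throughout. INSR, with the highest, stood below the all-gene median in both lines, and IGFBP3, with 38.7%, stood above it in the OE-labelled line. The INSR share rests on a listed 3′ UTR of 429 bases and would be lower with a longer one. Which 3′ UTR these cells use was not tested. Across 7252 genes, which are not independent replicates, footprints over RNA had a Spearman correlation of 0.27 in the knockout-labelled line and 0.30 in the OE-labelled line with the coding share, and of -0.47 and -0.44 with 3′ UTR length. Footprints lie on coding sequence, and the part of a transcript over which RNA fragments were counted is not given in the sources used here. Within the lowest of 4 equal bins by coding share, IGF2 had 3.36% of 1813 genes below it in the knockout-labelled line and 2.21% in the OE-labelled line. This bin reaches up to a share of 35.6%, far above that of IGF2, and 3′ UTR length was not held equal. The part of either in the IGF2 value was not tested. In the same bin IGFBP4 had 15.4% and 14.6% below it, and IGF1R 13.7% and 21.2%.

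**Figure D5:**
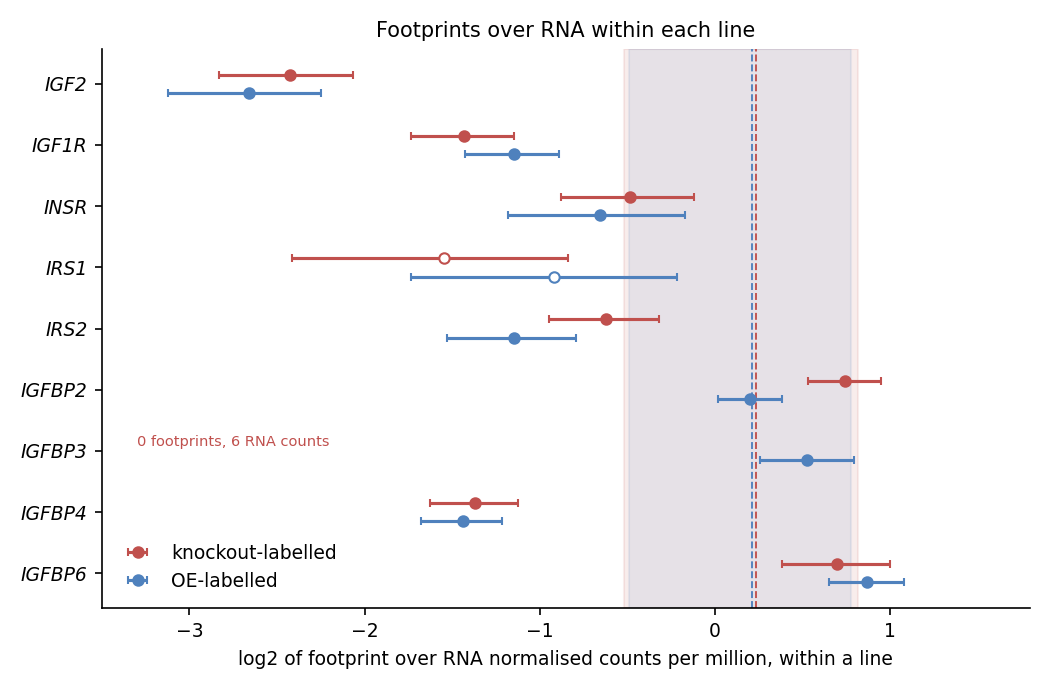
The log2 of footprint over RNA normalised CPM within each line (x axis), with 95% counting intervals, for each member; the knockout-labelled point stands above the OE-labelled point, dashed lines are the medians and shaded bands the middle 50% of 7260 genes, and open symbols mark IRS1, which is under the minimum count. IGF2 lies lowest in both lines at -2.43 and -2.66, IGFBP2 lies highest in the knockout-labelled line at 0.74, and IGFBP6 in the OE-labelled line at 0.87.

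Levels between genes were compared per kilobase. Footprint levels per kilobase of coding sequence in the knockout-labelled library were 106 CPM per kb for IGFBP2, 65.7 for IGFBP6, 60.3 for IGFBP4, 35.3 for IGF2, 8.46 for IGF1R, 8.34 for IRS2, 5.80 for INSR and 1.39 for IRS1, with IGFBP3 at 0. There IGFBP6 and IGFBP4, IGF1R and IRS2, and IRS1 and IGFBP3 did not differ beyond counting error, and all other neighbours in this order did. In the OE-labelled library the order was IGFBP6 (182 CPM per kb), IGFBP2 (150), IGFBP4 (89.2), IGFBP3 (85.9), IGF2 (33.3), IGF1R (12.8), IRS2 (7.16), INSR (4.00) and IRS1 (1.98), and only IGFBP4 and IGFBP3 were not apart. The binding protein genes thus held the leading places for ribosome density in both lines, except IGFBP3 in the knockout-labelled line, and the receptors and adaptors the lower ones.

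RNA levels per kilobase of the whole transcript in the knockout-labelled library were 55.1 CPM per kb for IGFBP4, 42.9 for IGFBP2, 25.1 for IGFBP6, 18.6 for IGF2, 7.96 for IGF1R, 7.16 for INSR, 6.36 for IRS2, 1.60 for IRS1 and 0.374 for IGFBP3. In the OE-labelled library they were 88.4 CPM per kb for IGFBP2, 85.6 for IGFBP4, 61.5 for IGFBP6, 23.1 for IGFBP3, 20.6 for IGF2, 9.93 for IGF1R, 7.85 for IRS2, 5.57 for INSR and 1.46 for IRS1. Neighbours not apart were IGF1R and INSR, and INSR and IRS2, in the knockout-labelled library, and IGFBP2 and IGFBP4, and IGFBP3 and IGF2, in the OE-labelled library. The place of IGF2 depends on the length used: per kilobase of coding sequence its RNA came out at 192 in the knockout-labelled library, the highest of the members, and at 212 in the OE-labelled library, below only IGFBP4.

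The genes most like IGFBP3 were sought by the distance between points of mRNA and footprint log2 ratio, over 7259 other genes in 4 libraries. ASB4, also on chromosome 7, was nearest at a distance of 3.75, with 4 RNA and 3 footprint counts in the knockout-labelled libraries and 163 and 106 in the OE-labelled libraries. APCDD1, an inhibitor of WNT signalling, followed with 108 RNA and 2 footprint counts in the knockout-labelled libraries, against 404 and 104 in the OE-labelled libraries. IQGAP2, a scaffold protein gene, had 21 and 20 in the knockout-labelled libraries, against 303 and 159 in the OE-labelled libraries. EPAS1, the gene of the hypoxia-responsive factor HIF-2alpha, and SAA1, whose reads may be shared with its near-identical copy SAA2, were at distances of 7.03 and 7.03. The distance depends on the 0.5 added to the footprint count of 0 for IGFBP3. These genes were picked by the ratios shown, so their lower knockout-labelled counts follow from the choice. ASB4 and IQGAP2 in both assays, APCDD1 in footprints and SAA1 in RNA passed the minimum mean count only through the OE-labelled library.

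Other genes of the pathway were counted in 7 lists of 108 genes, of which 106 had a row and 79 reached the minimum count in mRNA and 56 in footprints. In mRNA 8 of 79 were higher by 1.5-fold or more and 7 lower by as much, near the shares of all genes given above, with a median log2 ratio of 0.10. In footprints 8 of 56 were higher by 1.5-fold or more and 10 lower by as much, with a median of -0.05. Of all measured genes, 15% were higher and 14% lower by as much in footprints, and 10.5% each way in mRNA. The counts by list that follow stand against these shares, and each list holds too few genes to be told apart from them. The remaining binding protein genes were too scarce for a ratio: IGFBP7 had 3 RNA and 1 footprint counts in the knockout-labelled libraries and 20 and 24 in the OE-labelled libraries, IGFBP1 had 0 RNA counts in the knockout-labelled and 3 in the OE-labelled library, and IGFBP5 had none in RNA. M6PR, the small mannose 6-phosphate receptor, had a log2 mRNA ratio of 0.16, and LRP1, an endocytic receptor, had 0.56 (0.30 to 0.83) in mRNA and 0.70 (0.28 to 1.14) in footprints.

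Among the binding protein proteases and their inhibitors, 2 of 6 were at least 1.5-fold higher in mRNA and 1 lower. TIMP1, an inhibitor of matrix metalloproteinases, had 1287 RNA and 1878 footprint counts in the knockout-labelled libraries and 579 and 737 in the OE-labelled libraries, with log2 ratios of 0.71 (0.56 to 0.85) and 1.07 (0.95 to 1.20). STC2, an inhibitor of PAPPA, stood at 0.44 in mRNA and 0.60 in footprints. PAPPA itself had 0 RNA counts in the knockout-labelled and 14 in the OE-labelled library.

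Of 13 measured receptor adaptors, 0 were at least 1.5-fold higher and 2 lower in mRNA. DOK1, a docking protein gene, had a log2 ratio of -1.06 (-1.59 to -0.55), and CRK, which encodes an SH2-domain adaptor, stood at 0.11. RACK1, listed in the files as GNB2L1, encodes a scaffold of the small ribosomal subunit and stood at -0.29 in mRNA and 0.38 in footprints. Of 17 measured genes of phosphoinositide 3-kinase and AKT, 1 was at least 1.5-fold higher in mRNA and 0 lower. AKT1 stood at 0.21 in mRNA and 0.46 in footprints on the log2 scale, and RHEB, a small GTPase that activates mTOR complex 1, had -0.34 and -0.42.

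Of 12 measured receptor phosphatases and other inhibitors, 0 were at least 1.5-fold different in mRNA, and 1 of 9 was so in footprints. This was PRKCD, a protein kinase C gene, at -0.25 in mRNA and -1.34 (-1.73 to -0.96) in footprints, of which it had 86 in the knockout-labelled and 180 in the OE-labelled library. PTPN11, which encodes the phosphatase SHP2, stood at 0.27 and -0.26, and TRIB3, a pseudokinase gene known to inhibit AKT, at 0.46 and 0.43. The FOXO factors and targets, which AKT restrains, held the largest mRNA ratios of the lists in both directions. TXNIP, an inhibitor of thioredoxin, had an mRNA log2 ratio of 1.65 (1.60 to 1.70) and a footprint log2 ratio of 1.30. SOD2, the mitochondrial superoxide dismutase gene, had -1.67 in mRNA and -0.74 in footprints. PCK2 stood at 0.42 and 0.04. In all, 2 of 12 FOXO genes were at least 1.5-fold higher in mRNA and 3 lower. Of 16 measured lysosomal sorting genes, 3 were at least 1.5-fold higher and 1 lower in mRNA. The lower one was the protease gene CTSD at -0.60, and the related CTSB stood at -0.51.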

How the data were processed

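Ribosome footprints and fragmented RNA of 2 SW480 derivatives were measured, with a single library for each line in each assay. According to the labels' protocols, each library came from 3 pooled plates, footprints of 18 to 34 and RNA fragments of 18 to 50 nucleotides were kept, and linkers carried random bases. The authors deposited whole-number counts per gene. Cutadapt 1.10, Bowtie 1.1.2, HISAT2 2.1.0 and GRCh38 are named in the submitters' processing notes; the counting tool, its annotation, the counted part of a transcript and the use of the random bases are not stated in those notes or labels. In 1 library the cell line field reads SW840 and the source field SW480.

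Each assay was scaled by TMM (edgeR 4.0.16, R 4.3.3). A log2 ratio is knockout-labelled over OE-labelled with 0.5 added to each count. Its 95% interval is the exact conditional binomial one of the 2 counts, and for translational efficiency a Wald interval on the log scale. Genes needed a mean count of 50 over an assay's libraries, and in both assays for translational efficiency. The log2 ratio and its binomial interval were tested on simulated Poisson counts with known changes. The scaling, the Wald interval and the floor were not part of that test. A count of 0 was set against a floor of 3 counts, which is 0.423 to 1.11 CPM. Total counts set the precision. Transcript lengths and 3′ UTRs came from GENCODE release 29, where 19176 of the listed transcripts were found, and the miRNA and promoter sequences from RefSeq.

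The members and lists were chosen with earlier results of these data known. Named from the lists are genes at least 2-fold different in mRNA or in footprints, the 2 with the highest RNA counts of each list, and, chosen after their values were seen, scarce family members and single genes that fill a count. Alternatives were scaling by DESeq2 1.42.0 size factors, by total counts with and without mitochondrial genes or by the upper quartile, count minimums of 10 and 200 or none, 5 added to each count, and folds of 1.5 and 3.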

Additional observations from a re-analysis of the deposited data

How the results depend on the processing

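Over 25 member ratios, 124 of 125 values under the 4 other scalings and with 5 added to each count stayed within the main counting interval. The exception was the IGFBP3 footprint ratio, -5.66 with 5 added. Each scaling shifts all ratios of an assay by the same small amount, so staying within was nearly assured. It does not show that an interval stays clear of 0. With total counts IRS2, at -0.19 in mRNA and 0.43 in translational efficiency, was within counting error of 0 in both. The sums over several members were not rescaled. IGFBP3 ranged from -5.86 to -5.10 in mRNA and from -3.21 to -0.56 in translational efficiency, and the IGFBP4 efficiency ratio crossed 0 (-0.02 to 0.12). Total counts shifted the all-gene mRNA median to 0.13 and gave 408 genes higher and 261 lower, and without mitochondrial genes 406 and 262; for translational efficiency they gave 194 and 358, and 195 and 355. IGFBP2 (-0.93) was then under 2-fold, leaving 2 members lower in mRNA. No member was at least 2-fold higher under any setting. A fold of 3 left 1 member lower in mRNA and 1 in footprints, a minimum of 200 left 1 in footprints and 0 in translational efficiency, and 5 added to each count left 0 in translational efficiency. Counts over all genes moved with the filter by construction. Genes higher and lower in mRNA were 698 and 765 with a minimum of 10, 72 and 109 with 200, 2025 and 1908 with none, 1036 and 1038 at 1.5-fold, and 46 and 81 at 3-fold. In footprints they were 940 and 968, 61 and 70, 1929 and 2078, 1095 and 1028, and 59 and 76. In translational efficiency they were 884 and 893, 24 and 17, 1749 and 1832, 972 and 939, and 42 and 35. No paired analysis was possible because each line and assay has 1 library, and for the same reason no replicate could be left out. Depth limits IRS1 and IGF2 footprints and IGFBP3 in the knockout-labelled line.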
